A study of Mus with 8 samples.

Results

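Skin treated with minoxidil was compared with skin treated with plain keratin, in the 2 arrays titled for minoxidil and the 2 titled for keratin, 4 of the 8 arrays of the series. The mice were male C57BL/6 animals of 7 weeks, obtained at 6 weeks, in groups of 5 per the labels. Their hair was trimmed and, in the labels' word, depleted, and 1% minoxidil or 1% keratin was then applied to the skin for 20 days. MilliQ water (called untreated here) and 1% microsphere keratin were given to the remaining groups, and their arrays, 2 each, are set beside the comparison. RNA of the treated skin and its hair follicles was hybridised to mouse expression arrays, 2 per group, numbered 1 and 2. Whether these are animals, pools of animals or repeat hybridisations is not given in the sources used here, nor is the source of the keratin, and the spread between arrays that the p-values measure may be technical.

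Minoxidil is a vasodilator and the positive control of the study. It is a prodrug that sulfotransferases of the skin turn into minoxidil sulfate, which opens ATP-sensitive potassium channels, and it is used on the scalp to prolong the growth phase of the follicle. Keratins are filament proteins. In the hair shaft they are embedded in keratin-associated proteins, small proteins rich in cysteine or in glycine and tyrosine that link the filaments, while in the epidermis other keratins mark the basal and the differentiating layers. Sebaceous glands, which open into the follicle, make a sebum of wax esters, triglycerides and cholesterol esters, and the skin of the mouse also carries a layer of fat and a sheet of fast skeletal muscle.

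The arrays were of unequal signal, so minoxidil array 2 was compared with both keratin arrays first and minoxidil array 1 is given apart. Across all probesets, which are not independent replicates, the log2 values of minoxidil array 2 correlated at 0.987 with keratin array 2 and at 0.941 with keratin array 1, and the keratin arrays correlated at 0.947 with each other. Minoxidil array 1 correlated at only 0.406 and 0.432 with keratin arrays 2 and 1. On the control probeset at the 3′ end of beta-actin it reached 47.2, where the reading was 1883 in minoxidil array 2 and 1589 and 1613 in the keratin arrays. The basal epidermal keratin Krt5, a marker of the labelled tissue, read 524 in minoxidil array 2, 575 and 580.5 in the keratin arrays and 163 in minoxidil array 1. Values are linear intensities as deposited, with array medians from 35.9 to 37.7, so a reading in the thirties is close to the background of the array.

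Of 11235 genes tested, minoxidil array 2 was above both keratin arrays in 4220 (37.6%) and below both in 2681 (23.9%). It was at least 2-fold above both in 10 genes (0.0890%) and at least 2-fold below both in 2 (0.0178%). Those described below are Fa2h, Itm2a, Elovl6, Tceal7, Soat1, Hacd1, Aqp4, Meg3 and Ky on the higher side, and Cfd and Hp on the lower. Ky lay 1.02 log2 units above the higher keratin array, just inside the line, while Csrp3, a muscle protein, lay 0.98 above it, just outside, and on the lower side Krtap17-1 fell short at 0.91. The keratin arrays themselves were at least 2-fold apart in 244 genes (2.17%). Minoxidil array 2 was that far from keratin array 1 in 303 genes (2.70%), but from keratin array 2 in 29 (0.258%).

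No gene passed the test. With minoxidil array 1 left out and the spread pooled over the keratin, untreated and microsphere keratin arrays, limma gave 0 genes (0%) below a Benjamini-Hochberg adjusted p of 0.05 and 67 (0.596%) at an unadjusted p below 0.05, where evenly spread p-values would give 562. Minoxidil array 2 is then a lone array, assumed to vary like the others. Without keratin array 1 as well, limma called 1 gene, the defensin gene Defb8, at an adjusted p of 0.0301, and the array left out read 104, level with minoxidil array 2 at 102. With all 8 arrays limma gave 0 genes (0%), and 125 (1.11%) at an unadjusted p below 0.05, while leaving out minoxidil array 2 gave 1660 (14.8%), described with array 1 below. The genes and lists below are therefore described by their readings, and the limma adjusted p of each gene in the 7-array fit was 1.00. Differences are on the log2 scale, minoxidil array 2 minus the mean of the keratin arrays (1 array against 2) with the SE of the 7-array fit, and their median over all genes tested was 0.039.

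**Figure D1:**
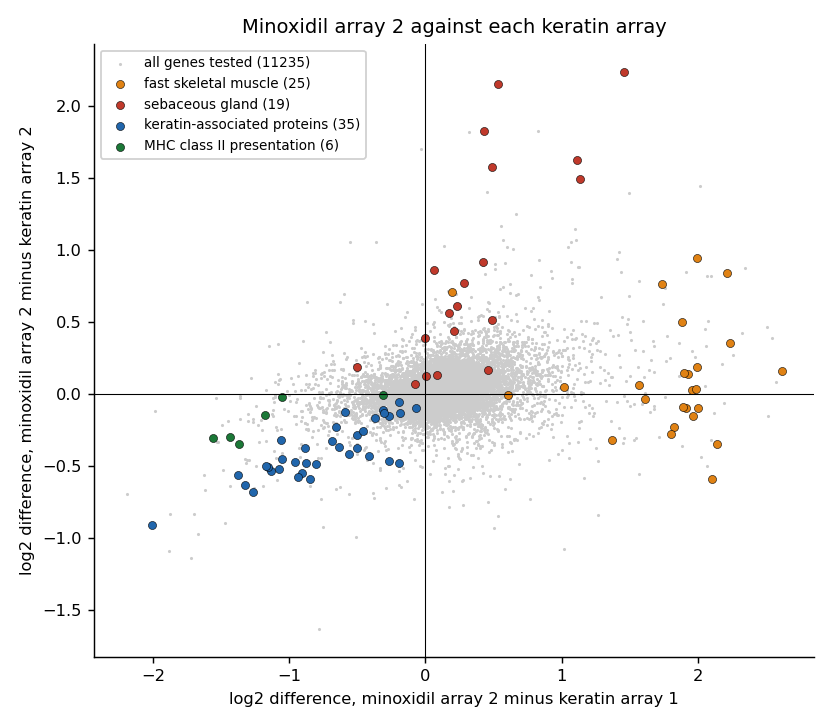
Log2 difference of minoxidil array 2 from keratin array 1 (horizontal) and from keratin array 2 (vertical), each point 1 of 11235 genes tested. All 35 keratin-associated protein genes and all 6 MHC class II genes lie in the lower left, sebaceous gland genes reach far up, and fast skeletal muscle genes spread to the right along the zero line.

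Genes of sebum lipid synthesis stood out on the higher side, in a list chosen with earlier results of these data known. Of 19 tested sebaceous gland genes (of 23 in the list), 16 were above both keratin arrays in minoxidil array 2 and 0 below both. The shares of all genes were 37.6% and 23.9%. Of the 19, 14 were above all 6 arrays of the other groups, which held for 14.9% of all genes. The median difference of the list was 0.46, 0.28 from keratin array 1 and 0.61 from keratin array 2, and 19 of 19 members were higher than in keratin array 2. No list member passed the test.

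Fa2h, which hydroxylates fatty acids, read 277 in minoxidil array 2 and 100.5 and 58.8 in keratin arrays 1 and 2. It read 59.3 and 62.1 in the untreated arrays and 90.5 and 90.3 in the microsphere keratin arrays, so minoxidil array 2 was the highest of the series, and its difference from keratin was 1.85 ± 0.40 (SE) at an unadjusted limma p of 0.00126. Elovl6, which lengthens palmitate, read 188 in minoxidil array 2 and 86.9 and 61.0 in keratin arrays 1 and 2, a difference of 1.37 ± 0.36 (SE). Soat1, which esterifies cholesterol, read 104 in minoxidil array 2 and 47.4 and 37.2 in keratin arrays 1 and 2, a difference of 1.31 ± 0.28 (SE) with the lowest unadjusted p of the fit, 0.00105. In each of these the keratin arrays lay within a factor of 2 of each other and well below minoxidil array 2. Elovl4, which makes very long fatty acids, was less even, with 234 in minoxidil array 2 and 162 and 52.7 in keratin arrays 1 and 2. Its difference of 1.34 ± 0.59 (SE) came to 0.53 against keratin array 1 and 2.15 against keratin array 2, and microsphere keratin array 1, at 109, was also higher than the untreated 53.6 and 56.8. Minoxidil array 1 did not share these high readings: Fa2h read 90.2 there, Elovl6 43.4, Soat1 31.4 and Elovl4 54.0. In bulk skin, more cells of a type and more RNA per cell cannot be told apart.

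**Figure D2:**
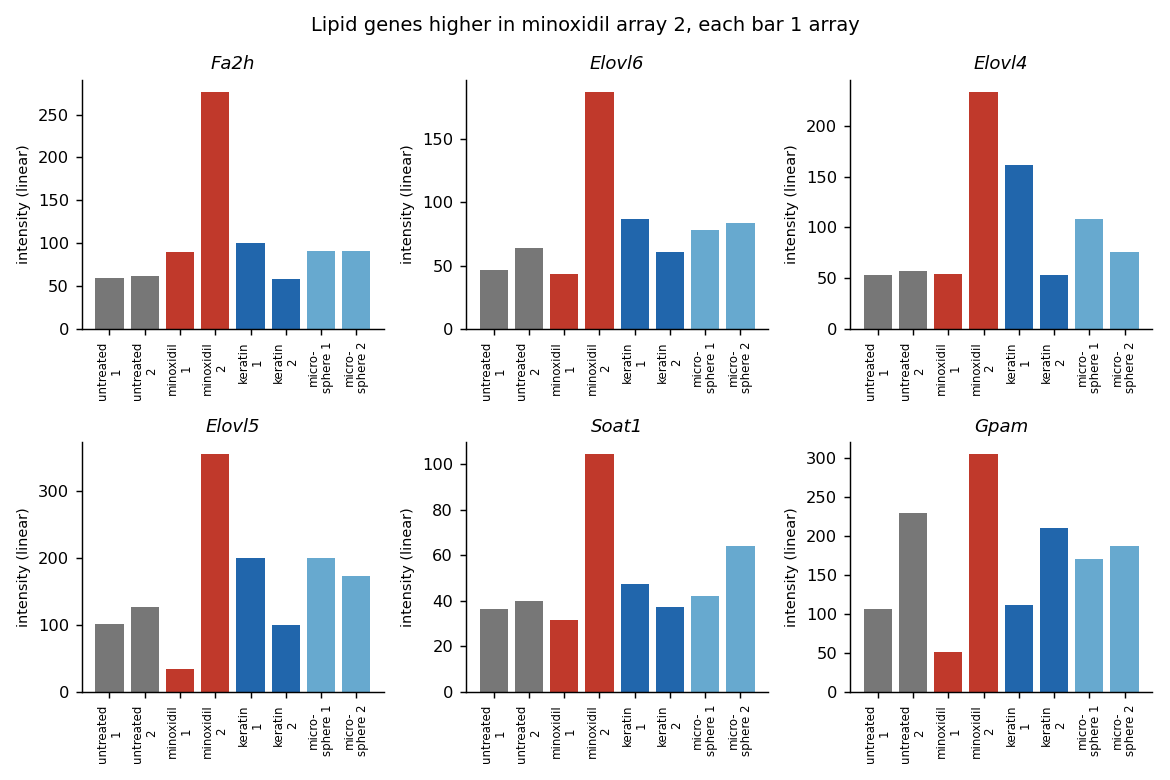
Linear intensity of 6 lipid genes, each bar 1 array, with axes from 0. Minoxidil array 2 is the highest of the 8 arrays in every panel, from 104 for Soat1 to 355 for Elovl5, while minoxidil array 1 does not exceed keratin array 1 in any of them.

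General fatty acid and sterol synthesis genes had smaller differences. Of 16 tested genes of fatty acid and triglyceride synthesis, 8 were above both keratin arrays and 1 below both, where 37.6% and 23.9% of all genes were, and the median difference was 0.25. Elovl5, an elongase of polyunsaturated fatty acids, read 355 in minoxidil array 2 and 201 and 100.2 in keratin arrays 1 and 2, with 101 and 127 in the untreated arrays, and differed by 1.32 ± 0.56 (SE). Gpam, which starts glycerolipid synthesis, read 304 in minoxidil array 2 and 111 and 210.3 in keratin arrays 1 and 2 and differed by 0.99 ± 0.63 (SE), though untreated array 2 read 229. Acacb, which makes malonyl-CoA, read 94.8 in minoxidil array 2 and 41.4 and 89.2 in keratin arrays 1 and 2. Elovl5 thus stood above both keratin arrays, Gpam and Acacb mainly above keratin array 1.

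Of 20 tested cholesterol synthesis genes, 15 were above both keratin arrays and 2 below both, against 37.6% and 23.9% of all genes. The median difference was 0.20. Cyp51, which removes a methyl group from a sterol precursor, read 62.8 in minoxidil array 2 and 41.4 and 43.1 in keratin arrays 1 and 2, with 35.7 and 48.9 in the untreated arrays, a difference of 0.57 ± 0.28 (SE). Msmo1, which acts on the next methyl groups, read 85.0 in minoxidil array 2 and 77.5 and 41.7 in keratin arrays 1 and 2, a difference of 0.58 ± 0.36 (SE). The Msmo1 reading of keratin array 1 was thus near that of minoxidil array 2, whereas Cyp51 was low in both keratin arrays.

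The keratin-associated proteins were uniformly on the lower side. All 35 tested members were below both keratin arrays in minoxidil array 2, where 23.9% of all genes were. Differences ran from -1.46 to -0.083, with a median of -0.69 from keratin array 1 and -0.43 from keratin array 2. The mean log2 level of the 35 genes was 5.66 in minoxidil array 2, 6.41 and 6.05 in the keratin arrays, 5.87 and 5.63 in the untreated arrays and 5.95 and 5.83 in the microsphere keratin arrays. Minoxidil array 2 thus lay between the untreated arrays, and the keratin arrays were the highest 2 of the series. In 23 of the 35 genes both keratin arrays were above both untreated arrays. Minoxidil array 2 was above both untreated arrays in 6 and below both in 11. The matching shares of all genes were not counted, so these counts only describe the list. No member passed limma. A probe can read several near-identical family copies, which makes single members uncertain and the 35 readings not independent of each other. Both keratin arrays were above all arrays of the other groups in 14 of the 35 genes, which held for 3.12% of all genes.

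By class, the ultra-high-sulfur members, rich in cysteine and made late in the cuticle and cortex of the shaft, had the lowest median, -0.75 over 10 genes. The median was -0.68 over 9 high-sulfur members and -0.44 over 11 high-glycine-tyrosine members. Krtap17-1 read 117 in minoxidil array 2 and 469.7 and 219 in keratin arrays 1 and 2, with 156 and 100.01 in the untreated arrays, and differed by -1.46 ± 0.60 (SE). Krtap4-16 read 52.4 in minoxidil array 2 and 132 and 81.0 in keratin arrays 1 and 2, with 61.8 and 44.9 in the untreated arrays, and differed by -0.98 ± 0.37 (SE). In both genes minoxidil array 2 lay between the untreated arrays, and both keratin arrays were above them. Krtap1-5, a high-sulfur member, read 61.6 in minoxidil array 2 and 159.8 and 91.1 in keratin arrays 1 and 2 and differed by -0.97 ± 0.39 (SE). Krtap6-5, of the high-glycine-tyrosine class, read 51.2 in minoxidil array 2 and 123 and 81.9 in keratin arrays 1 and 2 and differed by -0.97 ± 0.42 (SE), with untreated array 1 at 82.9, level with keratin array 2. Krtap22-2 went against the contrast with untreated skin, since untreated array 1, at 127, read above keratin arrays 1 and 2, at 121 and 94.2, and minoxidil array 2, at 64.4.

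**Figure D3:**
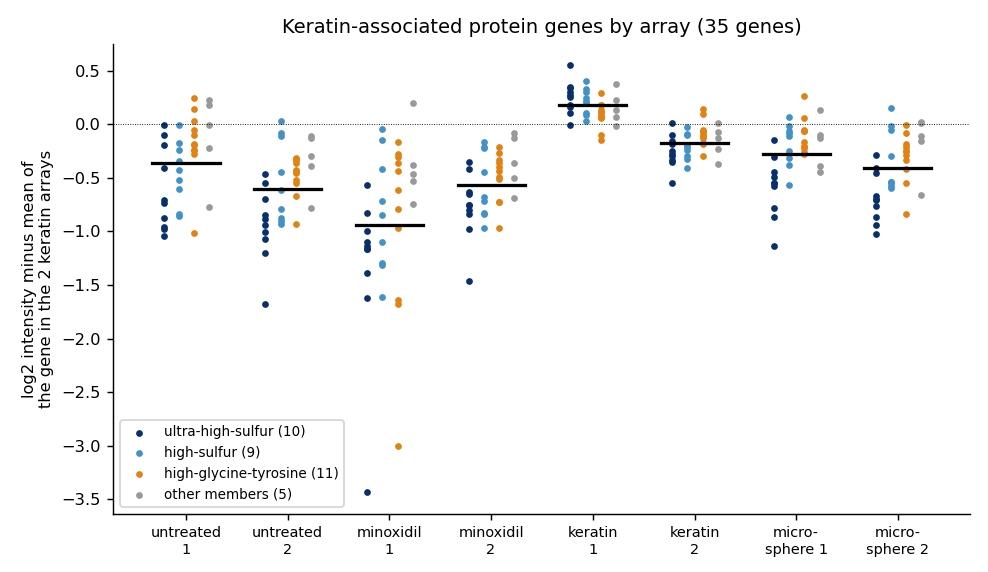
Log2 intensity of 35 keratin-associated protein genes in each array, minus the gene's mean in the 2 keratin arrays, coloured by class, with a black line at the mean over genes. Every gene in minoxidil array 2 lies below 0, at a median of -0.51, and minoxidil array 1 reaches down to -3.44 for Krtap17-1.

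The keratins of the hair shaft did not share this pattern. Of 7 tested type I hair keratins, 4 were above and 3 below both keratin arrays, and of 6 type II hair keratins 2 and 3, with medians of 0.061 and -0.062, the second of which was 0.059 with a median filter. Krt35, an early shaft keratin, read 287 in minoxidil array 2 and 107 and 237 in keratin arrays 1 and 2, with 66.5 and 318 in the untreated arrays, so the readings followed the array number more than the treatment. Krt85 of the matrix and cortex read 107 in minoxidil array 2 and 78.4 and 101 in keratin arrays 1 and 2. The inner root sheath and companion layer surround the growing shaft. In their list, 6 of 11 genes were below both keratin arrays and 2 above, against 23.9% and 37.6% of all genes. The list's median difference was only -0.097, at -0.21 from keratin array 1 and -0.25 from keratin array 2. Of the 11 genes, 4 were above the keratin mean. Krt27, Krt75 and Krt71 are among the members with the largest differences. Krt27 read 97.1 in minoxidil array 2 and 243 and 135 in keratin arrays 1 and 2 and Krt75, the companion layer keratin, 126 in minoxidil array 2 and 269.8 and 171 in keratin arrays 1 and 2, while Krt71 read 114 in minoxidil array 2 and 155 and 148 in keratin arrays 1 and 2. Prr9, a proline-rich gene of keratinising cells, read 197 in minoxidil array 2 and 723 and 351 in keratin arrays 1 and 2, a difference of -1.35 ± 0.72 (SE), with 513 and 249.6 in the untreated arrays.

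Genes of dividing cells and regulators of the hair matrix lay closer to keratin array 2 than to keratin array 1. Of 30 cell division genes, 21 were above both keratin arrays, where 37.6% of all genes were. Their median difference was 0.33 from keratin array 1 and 0.070 from keratin array 2. Mki67, a marker of cycling cells, read 186 in minoxidil array 2 and 96.0 and 180.1 in keratin arrays 1 and 2, and Rrm2, which supplies deoxyribonucleotides, 124 in minoxidil array 2 and 76.1 and 100.4 in keratin arrays 1 and 2. Shh, a growth signal of the follicle, differed alike from both keratin arrays, at 71.2 in minoxidil array 2 and 44.5 and 44.1 in keratin arrays 1 and 2, a difference of 0.69 ± 0.54 (SE). Its untreated readings were 51.6 and 46.0, and microsphere keratin array 2, at 137, was well above minoxidil array 2. Its receptor gene and target Ptch1 read 124 in minoxidil array 2 and 62.3 and 114 in keratin arrays 1 and 2. The 8 Hedgehog genes had a median of 0.15, with 4 above both keratin arrays, where 37.6% of all genes were. The 15 Wnt and Bmp genes had 0.010 (below 0 under quantile normalization and with a median filter), with 4 above both. The 9 hair shaft transcription factors had 0.21, with 2 above both. Against keratin array 2 alone, the Wnt and Bmp median was -0.024 and the hair shaft transcription factor median -0.041. Wnt5a, a Wnt ligand, read 58.5 in minoxidil array 2 and 44.8 and 44.2 in keratin arrays 1 and 2.

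Genes of the differentiating epidermis were mostly lower in minoxidil array 2 than with keratin. Of 15 tested suprabasal genes (of 25 in the list), 9 were below both keratin arrays and 1 above. The shares of all genes were 23.9% and 37.6%, and the list's median difference was -0.27. It was -0.28 from keratin array 1 and -0.12 from keratin array 2. Only 1 of the 15 was higher than in keratin array 1, but 6 were higher than in keratin array 2. Krt77, a suprabasal keratin, read 61.8 in minoxidil array 2 and 104 and 117 in keratin arrays 1 and 2, and Krtdap, made by differentiating keratinocytes, 49.3 in minoxidil array 2 and 77.6 and 77.8 in keratin arrays 1 and 2. The differences were -0.84 ± 0.34 (SE) and -0.66 ± 0.24 (SE), nearly the same against either keratin array. For Krt77 and Krtdap minoxidil array 2 was also below both untreated arrays, which read 77.5 and 102, and 59.0 and 58.7. Over the list this was not the rule: minoxidil array 2 was below both untreated arrays in 3 of 15 genes and above both in 4. The matching shares of all genes were not counted. The list's mean log2 level of 5.99 in minoxidil array 2 lay between the untreated 5.81 and 6.03. Ivl, a protein of the cornified envelope, read 49.7 in minoxidil array 2 and 107 and 58.2 in keratin arrays 1 and 2, a difference of -0.66 ± 0.42 (SE). In the wound and stress list, Sprr1a, a further envelope protein, read 76.4 in minoxidil array 2 and 350.1 and 123 in keratin arrays 1 and 2, with 109 and 72.3 in the untreated arrays and 225 in microsphere keratin array 1. It differed by -2.20 from keratin array 1 and -0.69 from keratin array 2. The basal layer had no such shift, with a median of 0.039 over 8 genes. This median turned below 0 under quantile normalization and was -0.095 against keratin array 2 alone. Krt14 read 428 in minoxidil array 2 and 435 and 278 in keratin arrays 1 and 2.

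Antigen presentation and macrophage genes were lower mainly against keratin array 1, and matrix genes against keratin array 1 but not against keratin array 2. All 6 tested MHC class II genes were below both keratin arrays, where 23.9% of all genes were. Their median difference was -1.27 from keratin array 1 and -0.22 from keratin array 2. H2-Aa, a class II chain, read 108 in minoxidil array 2 and 319 and 134 in keratin arrays 1 and 2, with 126 and 95.8 in the untreated arrays and 295 and 112 in the microsphere keratin arrays. Cd74, the invariant chain, read 106 in minoxidil array 2 and 274 and 134 in keratin arrays 1 and 2, with 98.8 and 114 in the untreated arrays and 236 and 133 in the microsphere keratin arrays. The high readings were thus those of keratin array 1 and microsphere keratin array 1, and keratin array 2 was close to the untreated arrays and minoxidil array 2. Of 11 macrophage and dendritic cell genes, 6 were below both keratin arrays, and the list's median log2 difference was -0.79 from keratin array 1 and -0.055 from keratin array 2. Lyz2, a lysozyme of myeloid cells, read 69.2 in minoxidil array 2 and 196 and 80.3 in keratin arrays 1 and 2. In the dermal extracellular matrix list, 8 of 30 were below both, near the 23.9% of all genes, and 21 lay between the keratin arrays, and the median was -0.47 from keratin array 1 and 0.088 from keratin array 2. Col1a2, a collagen chain, read 559 in minoxidil array 2 and 1154 and 571 in keratin arrays 1 and 2, with 1324 in microsphere keratin array 1. The part of dermis and immune cell content in the readings of keratin array 1 was not tested.

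Cfd and Hp, the 2 genes at least 2-fold lower, and further genes of fat and of secreted proteins were below both keratin arrays. Cfd, the adipocyte protease adipsin, read 144 in minoxidil array 2 and 531 and 306 in keratin arrays 1 and 2, with 282 and 237 in the untreated arrays and 315 and 177 in the microsphere keratin arrays. Minoxidil array 2 was the lowest of the 7 arrays other than minoxidil array 1, at a difference of -1.49 ± 0.62 (SE) and an unadjusted p of 0.0410. Hp, which codes for haptoglobin, a haemoglobin-binding protein, read 93.8 in minoxidil array 2 and 310.4 and 206 in keratin arrays 1 and 2, with 222 and 181 in the untreated arrays, a difference of -1.43 ± 0.53 (SE) at an unadjusted p of 0.0244. Adipoq, the fat hormone adiponectin, read 59.0 in minoxidil array 2 and 182 and 93.7 in keratin arrays 1 and 2, with 82.8 and 83.2 in the untreated arrays, a difference of -1.15 ± 0.50 (SE). Gpx3, a secreted glutathione peroxidase, read 194 in minoxidil array 2 and 539 and 360.3 in keratin arrays 1 and 2, and Apod, a lipid-binding protein of the extracellular fluid, 89.8 in minoxidil array 2 and 292 and 159.7 in keratin arrays 1 and 2. Their differences were -1.18 ± 0.63 (SE) and -1.27 ± 0.72 (SE), and the untreated arrays read 216 and 233 for Gpx3 and 229 and 105 for Apod. Gpx3 was thus lower in both untreated arrays than with keratin, while for Apod untreated array 1 was above keratin array 2. The mature adipocyte list as a whole did not follow, with a median of -0.091. In it 4 of 10 genes were below both keratin arrays and 1 above, against 23.9% and 37.6% of all genes. Car3, an abundant carbonic anhydrase of fat and muscle, was the member above both, at 2918 in minoxidil array 2 and 1297 and 2203 in keratin arrays 1 and 2.

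**Figure D4:**
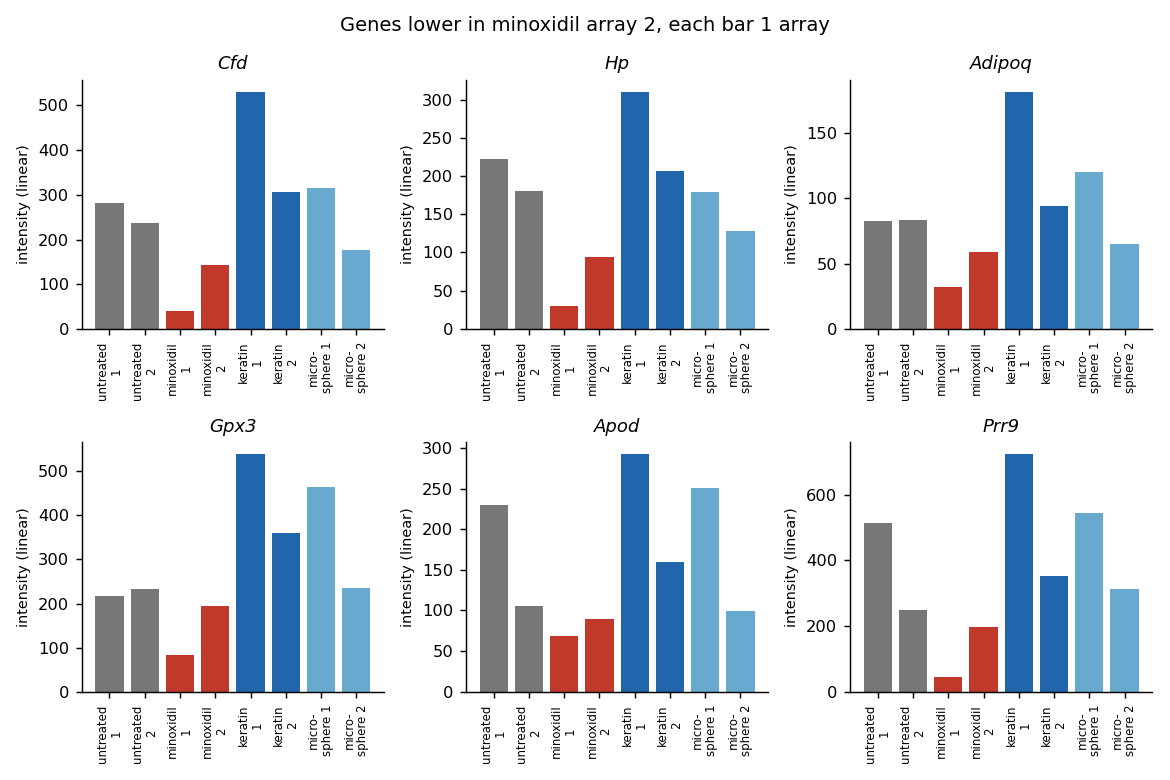
Linear intensity of 6 genes lower in minoxidil array 2 than in both keratin arrays, each bar 1 array, with axes from 0. Keratin array 1 is the highest bar in each panel, from 182 for Adipoq to 723 for Prr9, and minoxidil array 1 is the lowest.

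Skeletal muscle and mitochondrial genes were higher in minoxidil array 2 than in keratin array 1 and near the level of keratin array 2. All 25 tested fast muscle genes were above the keratin mean, yet the list's median log2 difference was 1.92 from keratin array 1 and 0.037 from keratin array 2, and 14 of 25 were above keratin array 2. Ckm, the muscle creatine kinase, read 1774 in minoxidil array 2 and 289 and 1589 in keratin arrays 1 and 2, with 171 and 1719 in the untreated arrays. Myl1, a myosin light chain, read 2463 in minoxidil array 2 and 617 and 1282 in keratin arrays 1 and 2, with 271 and 1758 in the untreated arrays. Over the list the mean log2 level was 10.08 in minoxidil array 2, 8.30 and 9.97 in the keratin arrays, 7.45 and 9.88 in the untreated arrays and 5.19 in minoxidil array 1. The range over keratin arrays alone was thus wider than the distance of minoxidil array 2 from keratin array 2. Of 69 oxidative phosphorylation subunits, 67 were above the keratin mean (60.3% of all genes were). Of the 69, 59 were above both keratin arrays and 0 below both, against 37.6% and 23.9% of all genes. Their median was 0.81 from keratin array 1 and 0.14 from keratin array 2. Cox5a, a subunit of cytochrome c oxidase, read 641 in minoxidil array 2 and 217 and 564 in keratin arrays 1 and 2. Over the 69 subunits the mean log2 level was 8.29 in minoxidil array 2, 7.49 and 8.12 in the keratin arrays and 6.82 and 8.20 in the untreated arrays. Both lists were thus low in keratin array 1 and untreated array 1, and the part of muscle content in the mitochondrial difference was not tested.

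Some genes among those at least 2-fold higher separated minoxidil array 2 from keratin array 2 as well as array 1 and were as high in untreated array 2. Hacd1, a dehydratase of very long fatty acid synthesis that is abundant in muscle, read 149 in minoxidil array 2 and 69.4 and 67.3 in keratin arrays 1 and 2, with 47.5 and 134 in the untreated arrays. Aqp4, a water channel of fast muscle fibres, read 102 in minoxidil array 2 and 47.3 and 48.7 in keratin arrays 1 and 2, with 34.4 and 97.6 in the untreated arrays. Ky, a muscle protein named after the kyphoscoliosis mouse, read 99.5 in minoxidil array 2 and 48.2 and 49.0 in keratin arrays 1 and 2, with 35.4 and 90.4 in the untreated arrays. The keratin arrays were thus level with each other, and untreated array 2 was close to minoxidil array 2. Meg3, a long noncoding RNA, read 153 in minoxidil array 2 and 72.5 and 73.2 in keratin arrays 1 and 2, with 45.6 and 106 in the untreated arrays. Itm2a, a transmembrane protein, read 295 in minoxidil array 2 and 72.9 and 108 in keratin arrays 1 and 2, with 55.7 and 147 in the untreated arrays, and Tceal7, a member of the transcription elongation factor A-like family, 98.0 in minoxidil array 2 and 44.9 and 34.5 in keratin arrays 1 and 2, with 34.5 and 47.3 in the untreated arrays. For Itm2a and Tceal7 minoxidil array 2 was above both untreated arrays. Their differences from keratin were 1.73 ± 0.59 (SE) and 1.32 ± 0.29 (SE).

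Genes linked to the action of minoxidil had no common direction. Sult1a1, a sulfotransferase that activates the drug, read 55.0 in minoxidil array 2 and 82.3 and 52.6 in keratin arrays 1 and 2, a difference of -0.26 ± 0.43 (SE). Abcc9, a subunit of the ATP-sensitive potassium channel, read 157 in minoxidil array 2 and 61.7 and 151 in keratin arrays 1 and 2, with 54.7 and 142 in the untreated arrays, so that keratin array 1 was the low reading. Vegfa, a growth factor for vessels, was above both keratin arrays in both minoxidil arrays, at 62.7 and 61.9 against 49.7 and 48.8, a difference of 0.33 ± 0.28 (SE) for array 2. Untreated array 2 read 63.5, as high as the minoxidil arrays. Igf1, a growth factor of the dermal papilla, read 49.7 in minoxidil array 2 and 88.0 and 45.7 in keratin arrays 1 and 2, and Fgf7, a keratinocyte growth factor, 37.8 in minoxidil array 2 and 55.7 and 41.1 in keratin arrays 1 and 2, with keratin array 1 the highest in both. Of the 14 tested growth factors and receptors, 7 were above and 2 below both keratin arrays, against 37.6% and 23.9% of all genes. Their median was 0.13. The 7 genes of drug activation, channel and collagen crosslinking had a median of 0.027, which turned negative under quantile normalization and with a median filter, and Kcnj8, the pore subunit of the vascular channel, was not among the genes tested.

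**Figure D5:**
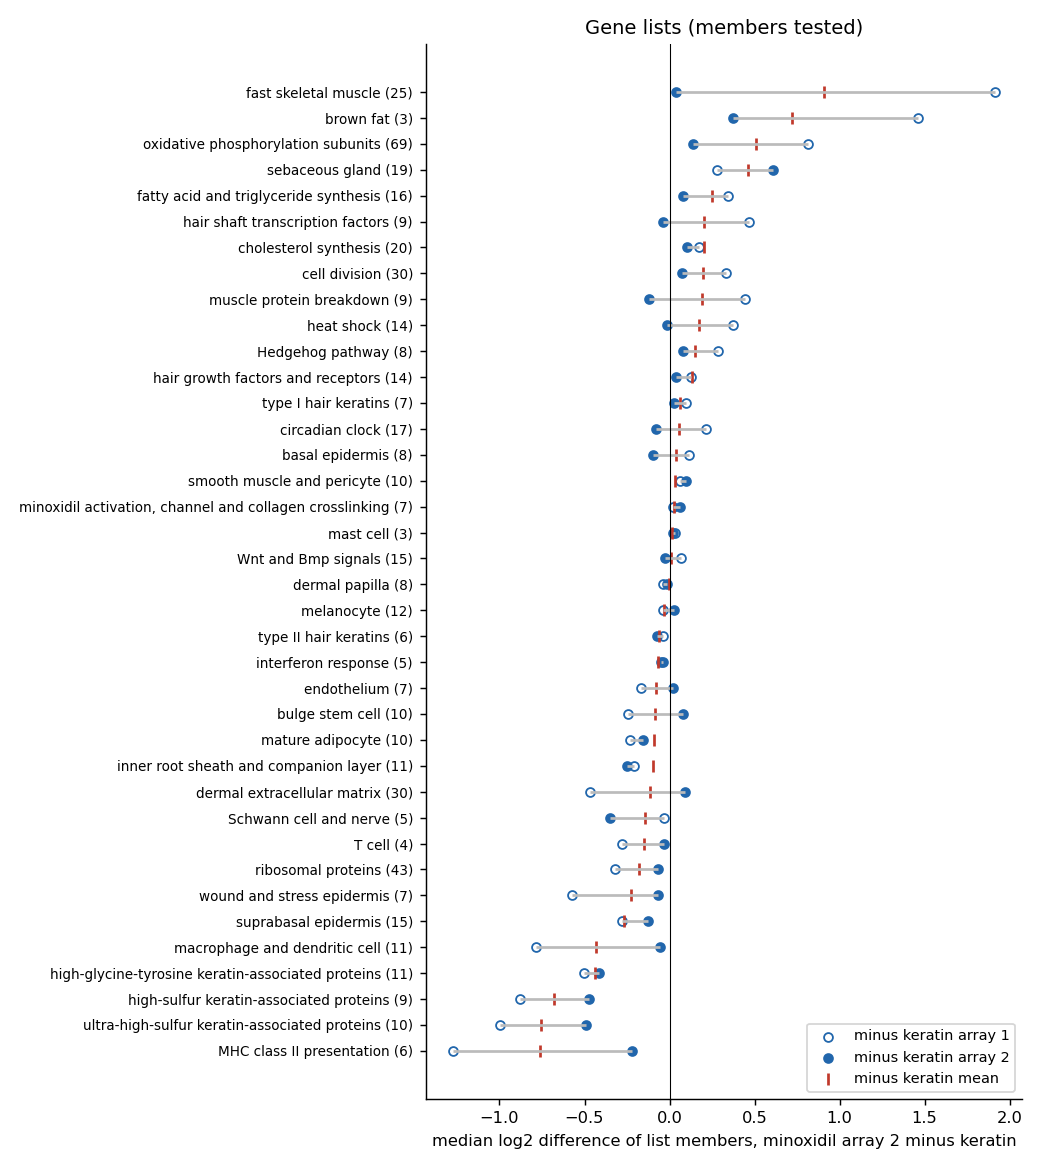
Median log2 difference of each gene list between minoxidil array 2 and keratin array 1 (open circles), keratin array 2 (filled circles) and the mean of both (red bars), for lists with 3 or more tested members, whose number is in brackets. The sebaceous and keratin-associated lists keep their side against both keratin arrays, as do others such as oxidative phosphorylation subunits and MHC class II presentation. Fast skeletal muscle also stays above 0 but runs from 0.037 to 1.92.

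Most of the remaining lists were small or close to the median of all genes, and the ribosomal protein list was neither. Smooth muscle and pericyte genes had a median of 0.030 over 10 genes, below 0 under quantile normalization, and endothelial genes -0.081 over 7. The median was -0.033 over 12 melanocyte genes, above 0 with a median filter, -0.0029 over 8 dermal papilla genes, above 0 with a median filter and with normexp at either offset (up to 0.14), and -0.087 over 10 genes of the bulge, where the follicle's stem cells sit. Krt15, a keratin of that niche, read 104 in minoxidil array 2 and 154 and 168 in keratin arrays 1 and 2. Against keratin array 2 alone, the median was 0.021 for endothelial, 0.026 for melanocyte and 0.076 for bulge genes. T cell genes had -0.15 over 4, interferon response genes -0.070 over 5, mast cell genes 0.016 over 3 and Schwann cell genes -0.15 over 5. Heat shock and circadian clock genes were higher against keratin array 1 alone, at 0.38 and 0.21, against -0.017 and -0.077 for keratin array 2. So were genes of muscle protein breakdown, at 0.44 and -0.12. Of 43 ribosomal protein genes, 24 were below both keratin arrays and 1 above, against 23.9% and 37.6% of all genes. Their median was -0.18, at -0.32 from keratin array 1 and -0.068 from keratin array 2. The 3 tested genes of the brown fat list had a median of 0.72, with 2 above both keratin arrays. Muscle also expresses mitochondrial genes, and the part of muscle content in this difference was not tested.

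Minoxidil array 1 read below both keratin arrays in 7576 genes (67.4%) and above both in 2398 (21.3%), with a median difference of -0.32. Taken as the lone minoxidil array in the same limma fit, it gave 1660 genes (14.8%) below an adjusted p of 0.05, 366 higher (3.26%) and 1294 lower (11.5%), where minoxidil array 2 gave 0. All 43 ribosomal protein genes, all 25 fast muscle genes and all 69 oxidative phosphorylation subunits were below both keratin arrays in it, at medians of -3.70, -3.83 and -2.39. Genes that every cell uses were thus low along with those of single cell types, and its low beta-actin reading, given above, moved with them. Ckm read 34.2 and Krt14 89.2 there.

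Both minoxidil arrays together lay outside both keratin arrays in 620 genes on the higher side (5.52%) and in 1473 on the lower (13.1%). With 1 array fewer to overlap, the sum of both sides grew to 5132 without keratin array 1, 4649 without keratin array 2, 6901 without minoxidil array 1 and 9974 without minoxidil array 2. On the lower side the widest gaps were in Hp, Cfd, Krtap17-1, Gpx3, Prr9 and Apod, with minoxidil array 1 at 29.6, 39.6, 29.7, 82.8, 45.2 and 69.1 in that order. Of the 35 keratin-associated proteins, 33 were among the lower genes. With all 8 arrays, 20 of the 35 had an unadjusted limma p below 0.05, against 1.11% of all genes. The low signal of array 1 and the treatment cannot be told apart in these lower counts. On the higher side the widest gaps were in Pisd-ps3, Slc27a4, St3gal4, Cul4a, Pdss1 and Vegfa. Slc27a4, a fatty acid transporter, read 89.6 and 71.1 with minoxidil, 50.7 and 49.7 with keratin and 42.1 and 49.9 in the untreated arrays. With all 8 arrays it differed by 0.67 ± 0.22 (SE), at an unadjusted limma p of 0.0156 and an adjusted p of 0.928. Pdss1, which makes the side chain of ubiquinone, read 47.0 and 49.9 against 35.2 and 37.6, all close to the background of the arrays. St3gal4, a sialyltransferase, read 66.4 and 70.2 against 48.7 and 51.1, and untreated array 2, at 70.2, was as high. Cul4a, a ubiquitin ligase scaffold, read 2093 in minoxidil array 1 and 65.1 in array 2, against 44.5 and 50.8 in the keratin arrays. The minoxidil arrays were thus further apart than array 2 and keratin. The untreated arrays read 34.2 and 325 for Cul4a, so untreated array 2 was above minoxidil array 2. The pseudogene Pisd-ps3 read 202 and 258 against 123 and 137, with microsphere keratin array 2 at 274.

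In the authors' deposited tables, the number 2 array of each treatment is set against the same control values. The number 2 arrays are those read above, so directions that match are not independent of those readings. Only probesets past a fold line against that control are listed, and 3064 probesets stand in both the minoxidil and the keratin table. Over these, the difference of the authors' log2 values for minoxidil and keratin had the same sign as minoxidil array 2 minus keratin array 2 in the value table for 84.4% of probesets, and the value table's differences were 0.408 times as large. Of the sebaceous list, 8 genes stand in both of the authors' deposited tables, all 8 higher with minoxidil, at a median log2 difference of 1.88. Of fatty acid and triglyceride synthesis, 7 genes stand in both of the authors' deposited tables, 4 higher and 3 lower with minoxidil, at a median of 0.13. In the authors' deposited tables Fa2h was 8.99-fold higher with minoxidil than in the control and had a signed fold of -1.37 with keratin, and Soat1 had 7.63 and -1.66. Of the ultra-high-sulfur keratin-associated proteins, 8 stand in both of the authors' deposited tables, all 8 lower with minoxidil than with keratin, at a median of -1.19. Krtap4-16 had a signed fold of 1.79 with minoxidil and 5.97 with keratin against the control in the authors' deposited tables, so it was above the control in both. Tceal7 had 5.88 and -4.29 in the same tables. Its keratin fold rests on a log2 value of 1.77, against 3.88 in the control. The reading of Tceal7 in keratin array 2 given above, 34.5, was close to the background of the array. For minoxidil array 1 the authors' deposited values were left aside, because the table named for it has columns headed for the microsphere comparison.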

How the data were processed

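The values are linear probeset intensity in a deposited table of 8 arrays. How the authors corrected its background and normalized it is not stated in these sources. The submitters' processing notes name RMA, Affymetrix Expression Console and Transcriptome Analysis Console. Arrays were of type HT_MG-430_PM, per the file headers. The authors' deposited comparison tables give a log2 value for each condition, with a fold change as a signed score (negative where the condition is lower). One also holds p-values, deposited as 1 throughout, which were not used.

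Gene names came from these tables, which list 28918 of 45141 probesets, 23804 with 1 symbol, chosen by the authors for folds in these same samples. Per gene the probeset with the highest mean log2 intensity over the 8 arrays stood for the gene, and the 11235 genes whose mean reached the 25th percentile were tested. RefSeq's table for GRCm38.p6, used only for names, lists 10550 of them by current symbol and 384 by synonym.

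Log2 values were fitted with limma 3.58.1 in R 4.3.3 (4 group means, intensity trend, Benjamini-Hochberg over all genes tested, 0.05), once without minoxidil array 1 (7 arrays) and once with it (8 arrays). The fit was also run on simulated data with known differences, whose results are not reported here. How often it would find a real difference is therefore not stated. No exact permutation test was run, since the smallest two-sided p it allows is 0.667 for 1 array against 2 and 0.333 for 2 against 2. The number of arrays limits the precision.

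Named genes were up to 12 per direction by difference among those at least 2-fold outside both keratin arrays, 6 per direction by gap with both minoxidil arrays, up to 4 per list by size of difference, any past the threshold, and Sult1a1, Abcc9, Kcnj8, Vegfa, Igf1 and Fgf7. Csrp3, beside the 2-fold line, and 2 genes named for a single call under an alternative were chosen after their values were seen. Some genes that the rule names are not reported here. Members and lists, 39 in all, were chosen with earlier results of these data known. Alternatives changed scaling, filter, probesets, variance model, array weights, block, thresholds and the arrays used.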

Additional observations from a re-analysis of the deposited data

How the results depend on the processing

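Scaling, filters, probeset choice, variance model and array weights left the limma count of minoxidil array 2 against keratin at 0, except that fitting only the minoxidil and keratin arrays gave 1 gene, Adamts20, at an adjusted p of 0.0341. Leaving out 1 array at a time gave 0 to 1 in the 7-array fit and 0 to 1660 with all 8 arrays. The count of genes at least 2-fold outside both keratin arrays, 12 (10 higher, 83.3%), was 6 (3 higher, 50%) under quantile normalization and 3 (all higher) after normexp with an offset of 50. It was 69 at a 1.5-fold line and 29 to 303 with 1 keratin array left out. The count with both minoxidil arrays outside both keratin arrays, 2093, was 1309 with a median filter, 6920 over every probeset and 4649 to 9974 with 1 array left out. Lists whose median lay over 0.3 from that of all genes numbered 10, and 6 to 18 with 1 keratin array left out. Quantile normalization moved the median of all genes from 0.039 to -0.0073 and the share of genes higher than the keratin mean from 60.3% to 47.6%. Its effect on small list medians is given with those lists, and the cause was not tested.

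The array numbers recur in every group, and with the number as a replicate block limma again gave 0 genes for minoxidil array 2 and 0 for both arrays (93 and 295 at an unadjusted p below 0.05). The number 1 minus number 2 differences correlated across genes at 0.345 between minoxidil and keratin, and from 0.112 to 0.594 over all pairs of groups. With 2 numbers, and no label that ties them to a batch, this does not settle a pairing. Single-gene differences that changed sign under the block were Col1a2 (0.042), Cul4a (-0.21), Krt35 (-0.083), Krt85 (-0.19), Mki67 (-0.087) and Sult1a1 (0.043). With 1 keratin array left out, Sult1a1 ranged from -0.58 to 0.063, Igf1 from -0.82 to 0.12 and Krt14 from -0.022 to 0.62. Readings near the array median leave little signal over background, so little difference can be resolved in dim genes.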
